A study of Homo sapiens with 6 samples.

Results

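The genes TIE1, KDR, NOTCH4 and ERG, known as regulators of endothelial cells, were followed in K1, a long-used human line from a papillary thyroid carcinoma, with and without targeting of the microRNA miR-31. They were taken by name from the authors' deposited table, and all 4 were found among its 986 genes. The 6 RNA sequencing libraries formed 2 groups by their titles: 3 control libraries from cells transfected with a control, and 3 libraries here called miR-31 KO from cells transfected with a single guide RNA against miR-31. Both groups were grown in DMEM with 10% serum. The labels do not say whether the KO cells were a clone or a pool, nor whether each library had its own culture. The p-values therefore rest on the differences among these libraries, which may be technical.

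TIE1 encodes an orphan receptor tyrosine kinase that pairs with the angiopoietin receptor TEK. KDR encodes VEGF receptor 2, the main signalling receptor for VEGFA on blood vessels. NOTCH4 encodes a Notch receptor, which is cut after binding a ligand on a neighbouring cell and sends its intracellular part to the nucleus, where it acts with the DNA-binding protein RBPJ. ERG encodes an ETS family transcription factor that binds DNA around the core GGAA and is known for keeping endothelial genes active. All of them are mainly described in endothelium, whereas the cells measured here are labelled as carcinoma cells of thyroid epithelium.

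In miR-31 KO the receptor genes were higher and ERG was lower. As ratios of group means NOTCH4 rose 45.8-fold, TIE1 rose 4.99-fold, KDR rose 2.03-fold and ERG fell 3.53-fold. Values are normalized counts made by the authors, given as mean ± SD with n = 3 libraries per group unless stated otherwise. The table holds genes past 2 thresholds, a log2 fold change of 1 or more in size and an adjusted p below 0.05, so the share of its genes that are called is 100%. That the 4 genes are called is therefore a property of the table they were taken from. Of the listed genes 60.1% were higher and 39.9% lower.

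The sequences shown first are the promoters of the receptor genes that were higher, because the factor gene that moved the other way encodes a protein that binds GGAA. Each runs 5′ to 3′ on the gene's own strand from 250 bases before to 50 bases after a start site annotated by RefSeq (GRCh38.p14), and all 4 genes were matched by symbol. Capitals mark GGAA or its reverse complement TTCC. The windows are chr1:43300732-43301031 on the plus strand for TIE1, chr4:55125546-55125845 on the minus strand for KDR and chr6:32224018-32224317 on the minus strand for NOTCH4.
NOTCH4: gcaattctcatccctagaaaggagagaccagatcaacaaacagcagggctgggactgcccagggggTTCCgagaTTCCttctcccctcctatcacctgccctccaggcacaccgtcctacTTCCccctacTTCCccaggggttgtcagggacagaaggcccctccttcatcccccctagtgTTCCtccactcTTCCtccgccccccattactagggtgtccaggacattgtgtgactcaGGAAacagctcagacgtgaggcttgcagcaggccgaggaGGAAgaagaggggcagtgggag
TIE1: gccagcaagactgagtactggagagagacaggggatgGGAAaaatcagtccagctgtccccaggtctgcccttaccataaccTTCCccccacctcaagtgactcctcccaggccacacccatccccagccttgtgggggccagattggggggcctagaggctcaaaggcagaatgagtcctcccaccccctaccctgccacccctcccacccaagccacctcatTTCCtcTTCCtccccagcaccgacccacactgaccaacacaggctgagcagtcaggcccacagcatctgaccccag
KDR: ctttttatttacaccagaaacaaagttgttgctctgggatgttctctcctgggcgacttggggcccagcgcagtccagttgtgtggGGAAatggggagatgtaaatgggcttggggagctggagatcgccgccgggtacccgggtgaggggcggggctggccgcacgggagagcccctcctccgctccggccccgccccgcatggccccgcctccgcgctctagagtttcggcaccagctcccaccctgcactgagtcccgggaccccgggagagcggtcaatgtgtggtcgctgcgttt

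The NOTCH4 window held 8 matches of GGAA on both strands, 6 of them on the strand opposite to the gene. As many matches were present in 3.78% of 35116 RefSeq promoter windows of the same length. The TIE1 window held 4 matches, a number reached by 46.0% of windows, and the KDR window held 1, where 95.5% of windows held 1 or more. A longer ETS form, AGGAAG, contains the core. It was found 2 times in the NOTCH4 window, 1 time in the TIE1 window and at no place in the KDR window. Of all windows 33.6% held 1 or more of it and 7.89% held 2 or more. TGGGAA, the form bound by RBPJ, which overlaps the ETS core, was found 1 time at TIE1 and not in the other 2 receptor windows, against 24.0% of all windows. The GC box, GGGCGG, was found 2 times at KDR and 1 time at NOTCH4. Of all windows 45.0% held 1 or more and 26.7% held 2 or more. None of the 3 windows held the form AGATAA, read by factors of the GATA family, against 10.3% of all windows. These matches describe letters in a window and were not tested for binding. ERG has 4 annotated start windows in RefSeq, with between 1 and 6 matches of GGAA each, and which start was used in these cells is not known from a table with 1 value per gene.

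**Figure D1:**
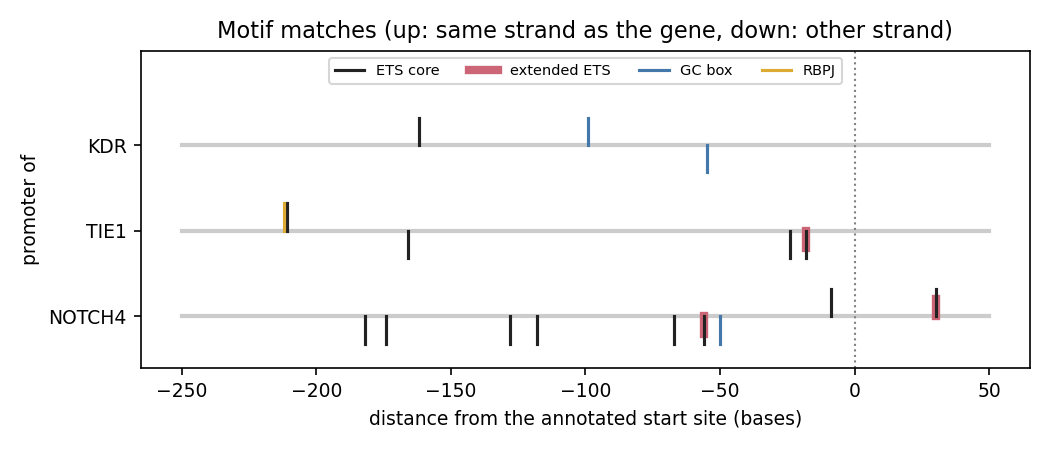
Motif matches in the promoter windows of KDR, TIE1 and NOTCH4, by distance in bases from the annotated start site (dotted line at 0). Ticks above a line are on the strand of the gene and ticks below on the other strand; NOTCH4 has 8 ETS cores, TIE1 has 4 and KDR has 1.

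NOTCH4 had the largest change of the 4 genes. Its control values were 11.9, 11.02 and 10.8 normalized counts in replicates 1, 2 and 3, and its KO values were 617, 569 and 359. The controls were nearly equal, the KO libraries all lay far above them, and KO replicate 3 was the lowest of its group. The means were 11.2 ± 0.568 in control and 515 ± 138 in the KO libraries, and the lowest KO library was 30.2-fold above the highest control. The authors' deposited table gave a log2 fold change of 5.50 with an adjusted p of 5.31e-56. By adjusted p NOTCH4 was number 12 of the 986 genes, and by size of change number 60 of the 593 higher genes.

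NOTCH4 lies on chromosome 6 from 32194843 to 32224067, minus strand (GRCh38, GENCODE release 29; these coordinates come from the annotation, since the table has none). Its 3′ end overlaps GPSM3, a gene on the same strand, over 681 bases, of which 98 are exonic in both genes, or 1.45% of the exonic length of NOTCH4. GPSM3, which encodes a regulator of G protein signalling, was also listed, at 53.3 ± 9.39 in the controls and 132 ± 36.2 in the KO libraries, and the authors' deposited table gave a log2 fold change of 1.31 with an adjusted p of 0.000226, while limma called it in 1 of 14 refits. How the authors' counting treated reads from the shared stretch is not given in the sources used here. The values of GPSM3 and NOTCH4 are uncertain in that respect, and the shared part of the exonic length of GPSM3 was not computed.

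TIE1 had the highest level per kilobase of the 4 genes in every library. Its control values were 1587, 675 and 725 normalized counts in replicates 1, 2 and 3, and its KO values were 5636, 5425 and 3853. Control replicate 1 was the highest control, KO replicate 3 was below the other KO libraries, and the groups did not overlap. The means were 996 ± 513 and 4971 ± 974, and the closest libraries of the 2 groups still differed 2.43-fold. The log2 fold change in the authors' deposited table was 2.32, with an adjusted p of 1.62e-16. The spread of the TIE1 controls, with a coefficient of variation of 51.5%, was wide for the table, at place 436 from the lowest among 465 genes with a control mean of at least 50, whose median was 19.5%.

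The position of control replicate 1 for TIE1 was 0.40 of the way, on the log2 scale, from the mean of control replicates 2 and 3 to the mean of KO replicates 1 and 2. Over all listed genes the median of this position was 0.0529. For ERG and NOTCH4 it was -0.00738 and 0.0199, and for KDR it was -0.58, which is on the far side from the KO group. The library that raised the control mean of TIE1 thus lay with its group for ERG and NOTCH4. KO replicate 3 had a summed value of 655191 over the listed genes, against 943360 and 929680 in KO replicates 1 and 2. Its position, from KO replicates 1 and 2 toward control replicates 2 and 3, was 0.17 for TIE1, 0.13 for NOTCH4, 0.0147 for ERG and -0.38 for KDR, with a median of 0.0875 over the listed genes. The part of this library's lower sum in these values was not tested. TIE1 lies on chromosome 1 from 43300993 to 43323108, plus strand, with no overlapping gene in the annotation.

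KDR changed the least. Its control values were 169, 271 and 200 normalized counts in replicates 1, 2 and 3, and its KO values were 390, 413 and 493. The groups did not overlap, control replicate 2 was the highest control, and KO replicate 3, the lowest KO library for TIE1 and NOTCH4, was the highest for KDR. The means were 213 ± 52.04 and 432 ± 54.2, and the nearest libraries of the groups differed 1.44-fold. The authors' deposited table gave a log2 fold change of 1.02 and an adjusted p of 0.000102, so KDR stood at place 582 of the 593 higher genes by size of change, close to the minimum fold of the table. KDR lies on chromosome 4 from 55078259 to 55125595, minus strand, and the annotation places an antisense RNA gene across it. Whether counting used strand is not given, so reads from the 2 strands cannot be told apart.

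ERG was the 1 member that fell. Its control values were 476, 440 and 505 normalized counts in replicates 1, 2 and 3, and its KO values were 132, 135 and 136. Each group was tight, and the lowest control was 3.24-fold above the highest KO library. The means were 474 ± 32.8 and 134 ± 2.25, and the authors' deposited table gave a log2 fold change of -1.82 with an adjusted p of 2.38e-18. The KO libraries differed little for ERG: the coefficient of variation of 1.68% was number 5 from the lowest among 509 genes with a KO mean of at least 50, whose median was 19.7%. In control it was 6.92%, number 55 of 465. ERG lies on chromosome 21 from 38380027 to 38661780, minus strand.

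**Figure D2:**
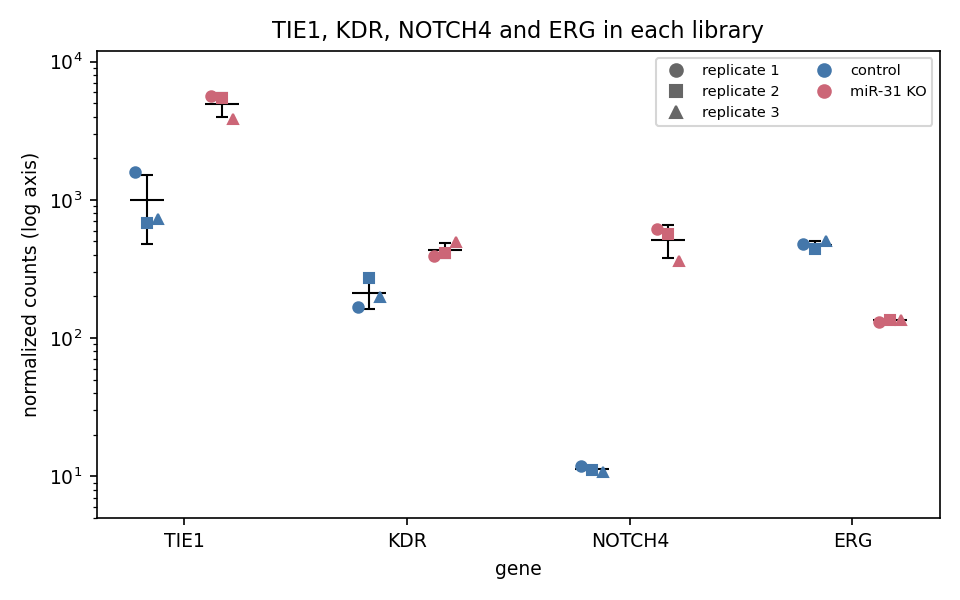
Normalized counts (log axis) of TIE1, KDR, NOTCH4 and ERG, with 1 point per library, the marker shape giving the replicate number, and a bar for the mean with its SD (n = 3). No gene's groups overlap: the receptor genes are higher in miR-31 KO, NOTCH4 most, and ERG is lower with KO values between 132 and 136.

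Each of the 4 genes had no overlap between the groups, as did 92.6% of the listed genes. In a limma refit of the listed genes on log2(value + 1), adjusted over the 16806 genes the authors tested, 45.3% of the listed genes had an adjusted p under 0.05. This refit gave log2 differences, with standard errors, of 5.36 ± 0.28 for NOTCH4 (adjusted p = 0.000189), 2.41 ± 0.34 for TIE1 (adjusted p = 0.00974), -1.81 ± 0.17 for ERG (adjusted p = 0.00192) and 1.04 ± 0.23 for KDR (adjusted p = 0.0651). KDR thus passed in the authors' deposited table and not in the limma refit. Over 14 refits, this one and those with other settings or fewer libraries, in which 15.8% to 51.2% of genes passed, NOTCH4 and ERG kept their call in all and KDR was called in none of them, while its difference stayed positive, between 0.33 and 1.22. TIE1 lost its call in limma refits without control replicate 2 or 3 or without KO replicate 1 or 2, with log2 differences of 2.19 to 2.34 and adjusted p of 0.0608 to 0.109. Without both control replicate 1 and KO replicate 3 its log2 difference was 2.98 (limma, adjusted p = 8.02e-05), an alternative chosen after the values were seen.

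**Figure D3:**
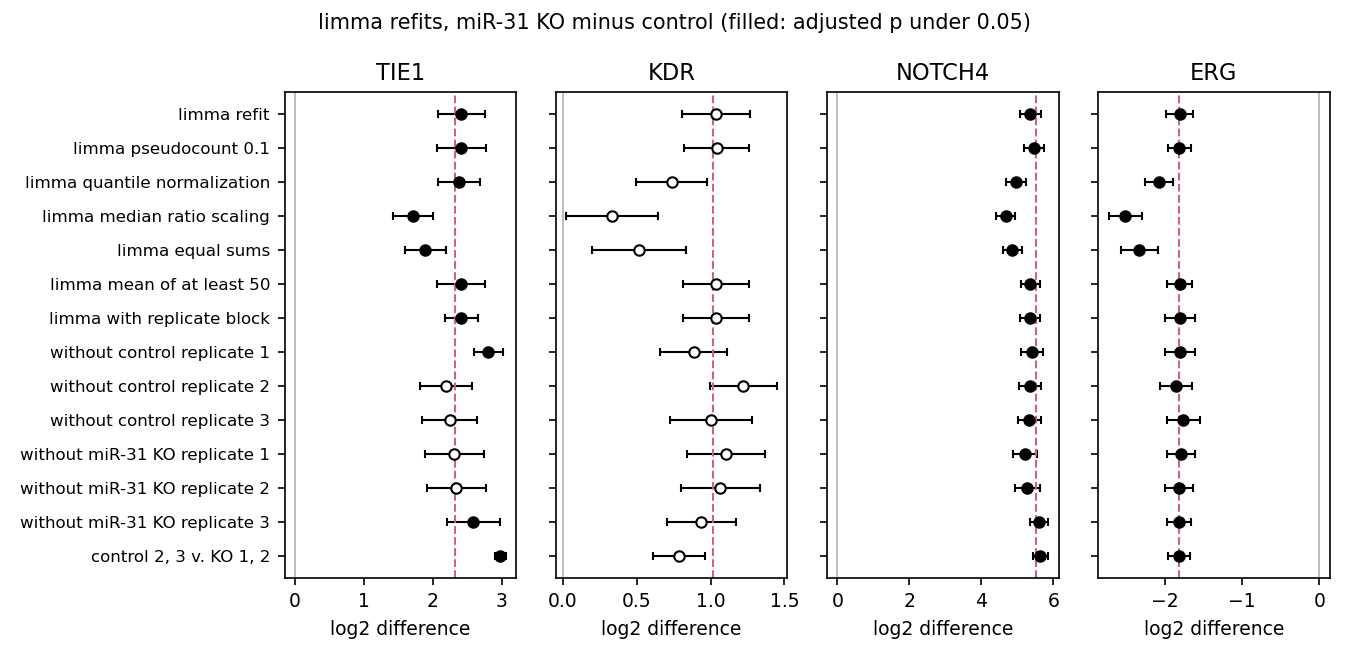
Log2 difference between miR-31 KO and control with its standard error in 14 limma refits (rows) for each gene (panels, each with its own scale). Filled points have an adjusted p under 0.05, the dashed line is the authors' log2 fold change and the grey line is 0; NOTCH4 and ERG are filled in all refits, TIE1 in 10 and KDR in none.

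The scaling of the libraries bears on the size of these changes. Dividing each library by its median ratio over the listed genes shifted the median log2 difference of all listed genes by -0.71, and equal sums and quantile normalization shifted it by -0.52 each. After median ratio scaling the limma log2 differences were 4.67 for NOTCH4, 1.71 for TIE1, 0.33 for KDR and -2.51 for ERG, around a median of 0.56 over the listed genes. The directions of all 4 genes were kept in the 3 scalings. KDR was below that median here, as it was without this scaling, at 1.04 beside 1.26. These scalings use selected genes, most of them higher in miR-31 KO.

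**Figure D4:**
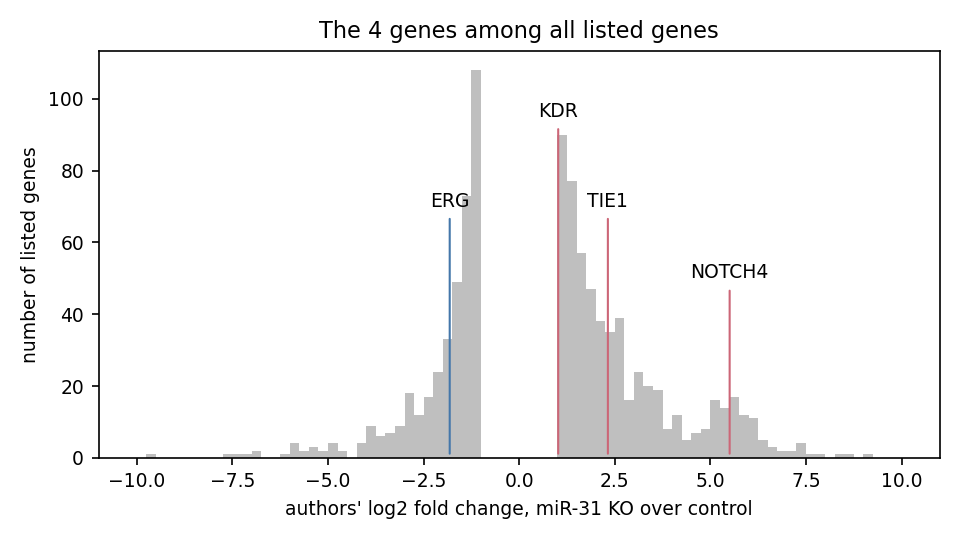
Number of listed genes (vertical axis) by the authors' log2 fold change of miR-31 KO over control (horizontal axis), with the 4 genes marked. KDR, at 1.02, stands at the edge of the empty middle left by the table's minimum fold, TIE1 and ERG lie further out at 2.32 and -1.82, and NOTCH4 is at 5.50.

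A ratio of genes within a library does not depend on the scaling of that library, except through the 1 added to each value. ERG was therefore set against each receptor gene. The log2 ratio of ERG to NOTCH4, each value + 1, was 5.21, 5.20 and 5.42 in control replicates 1, 2 and 3 and -2.22, -2.07 and -1.39 in the KO replicates. The ratio was above 0 in every control library and below 0 in every KO library. The mean ratio moved from 5.28 ± 0.13 to -1.89 ± 0.44, a difference of -7.17, or -7.28 with 0.1 added in place of 1.

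The log2 ratio of ERG to KDR was 1.49, 0.70 and 1.34 in control and -1.56, -1.60 and -1.85 in the KO libraries, and it likewise changed sign in all libraries. Its mean moved from 1.17 ± 0.42 to -1.67 ± 0.16, a difference of -2.85. The log2 ratio of ERG to TIE1 was below 0 throughout, at -1.74, -0.62 and -0.52 in control and -5.41, -5.32 and -4.82 in miR-31 KO. Its mean moved from -0.96 ± 0.68 to -5.18 ± 0.32, a difference of -4.22. For each pair the lowest control ratio was above the highest KO ratio, by 2.26 or more on the log2 scale. The separation follows from the genes' own values, which do not overlap between the groups and moved in opposite directions, so the ratios are a description. An exact two-sided permutation test could only return p = 0.1, the smallest p of 3 libraries against 3, and is no support.

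**Figure D5:**
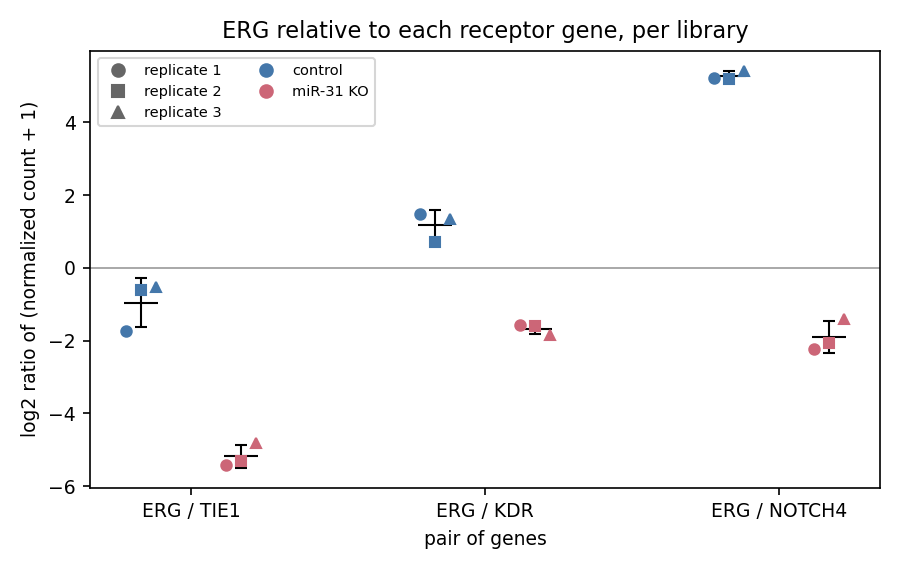
Log2 ratio of ERG to TIE1, KDR and NOTCH4 (normalized count + 1) in each library, with mean and SD (n = 3) per group. The KO libraries lie below the control libraries in all 3 pairs, and the ratios to KDR and NOTCH4 cross 0.

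Levels of different genes were compared per kilobase of exonic sequence, since longer transcripts give more reads. In control cells the order was TIE1 with 250 ± 129 normalized counts per kb, ERG with 87.9 ± 6.08, KDR with 35.2 ± 8.59 and NOTCH4 with 1.67 ± 0.0842. No neighbours in that order overlapped in their control libraries. In miR-31 KO the order was TIE1 with 1249 ± 245 per kb, NOTCH4 with 76.4 ± 20.4, KDR with 71.4 ± 8.96 and ERG with 24.9 ± 0.418. NOTCH4 and KDR did not differ beyond their spread there, with 53.2 to 91.5 per kb for NOTCH4 and 64.5 to 81.5 for KDR. ERG therefore went from the second highest of the 4 genes to the lowest. Exonic length was the union of protein coding transcripts in GENCODE release 29, from 3980 bases for TIE1 to 6745 for NOTCH4, and the isoforms present were not measured.

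Genes of the same pathways were taken from lists. The 986 listed genes are 5.87% of the 16806 the authors tested, and those listed as lower are 2.34%. Each list below was counted whole, whether or not its genes were among those tested. Its share is therefore on another base than the 5.87% and may be too low beside it. Of 16 VEGF and angiopoietin genes 3 were listed, all higher, which is 1 of 14 without the members. The listed genes were TIE1, KDR and PGF, which encodes placental growth factor, a ligand of the VEGF receptor FLT1. PGF had 152, 94.2 and 121 normalized counts in control and 336, 263 and 248 in the KO replicates, and the authors' deposited table gave a log2 fold change of 1.20 with an adjusted p of 3.23e-05. All its KO libraries were above its controls, but limma called it in 4 of 14 refits, and after median ratio scaling its log2 difference was 0.51 (limma, adjusted p = 1). The ligand genes of KDR and the receptor genes FLT1, FLT4 and TEK were not among the listed genes and were not analysed here.

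Of 35 Notch genes 3 were listed, all higher, or 2 of 34 without the member, beside 5.87% of all tested genes. Besides NOTCH4 these were DLL3, which encodes a divergent Notch ligand known to inhibit signalling within the cell that makes it, and DTX4, which encodes a ubiquitin ligase acting on Notch. DLL3 was 18.3 ± 6.36 in control and 59.7 ± 10.4 in the KO libraries, and DTX4 was 157 ± 36.6 and 383 ± 93.5. The authors' deposited table gave them log2 fold changes of 1.70 and 1.29 with adjusted p of 9.18e-05 and 1.34e-05. In limma refits DLL3 was called in 0 of 13 and DTX4 in 4 of 14, and the log2 difference of DTX4 was 0.57 after median ratio scaling. No HES or HEY gene, the usual transcriptional targets of Notch, was among the listed genes. Each of them was either not past both thresholds or not tested, and whether any changed by less is not known.

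Of 28 ETS factors 2 were listed, ERG as lower and EHF, an epithelial ETS factor, as higher, so 1 of 27 was listed without the member, against 5.87% of all tested genes. EHF had 18.03, 6.01 and 2.91 in control and 90.5, 91.8 and 39.1 in the KO replicates, and the authors' deposited table gave a log2 fold change of 3.02 with an adjusted p of 3.10e-06. It was called in 4 of 13 limma refits. Its lowest library of the KO group was replicate 3 and its highest control was replicate 1. The median log2 fold change was 1.20 in the VEGF and angiopoietin list, 1.70 in the Notch list and 0.60 in the ETS list, beside 1.27 over all listed genes. The members themselves are in these medians.

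Of 28 endothelial markers 5 were listed, the 4 genes themselves and ICAM2, an adhesion molecule of endothelium and blood cells. Without the members this is 1 of 24, against 5.87% of all tested genes. ICAM2 had 5.27, 1.00 and 0 in control and 31.1, 32.9 and 22.4 in the KO replicates, and the authors' deposited table gave a log2 fold change of 3.73 with an adjusted p of 3.38e-07, while limma called it in 4 of 13 refits. The defining endothelial markers PECAM1, CDH5 and VWF were not among the listed genes, so their levels were not analysed here. No pericyte or smooth muscle marker of 12 was listed. Of 17 blood cell markers 2 were listed, CD3D and ITGAM, with summed values of 5.62 to 20.03 in control and 21.9 to 97.7 in miR-31 KO. ITGAM overlapped between the groups, with 5.62, 20.03 and 12.8 in control and 17.9, 22.4 and 92.6 in the KO replicates. It was called in 0 of 13 limma refits, and its log2 difference was 1.48 with all libraries and 0.76 without KO replicate 3. Of 8 fibroblast markers 2 were listed, LUM and PDGFRA, with sums of 2.01 to 8.49 and 26.7 to 42.5. CD3D and LUM were at 0 in all controls, and limma called CD3D in 7 and LUM in 10 of 13 refits.

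Of 21 thyroid epithelial markers 5 were listed, all lower: KRT19, KRT7, SLC26A4, DUOXA1 and DUOX2. Of all tested genes 5.87% were listed in either direction and 2.34% as lower. The lists were chosen with earlier results of these data known, so this count is a description. The 5 markers had sums of 1204 to 1994 in control and 483 to 695 in miR-31 KO. KRT19 alone had 984 to 1649 in control and 404 to 571 in miR-31 KO. Of 13 or 14 limma refits each, DUOXA1 was called in 13, KRT19 in 10, KRT7 in 4, and SLC26A4 and DUOX2 in 1. The defining thyroid genes TG and PAX8 were not among the listed genes. In bulk RNA fewer cells of a type and less RNA per cell cannot be told apart, and the part of these marker shifts in the 4 genes' results was not tested. Neither MIR31 nor its host gene was listed, so the labels of the KO group were not checked by the targeted gene.

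The guide was aimed at miR-31, whose mature 5p strand and the 1 matching site among the 4 genes are shown because miRNAs act on transcripts through such sites. Capitals mark the seed (bases 2 to 8) in the miRNA, from RefSeq (GRCh38.p14), chromosome 9 from 21512158 to 21512178, minus strand, and its reverse complement in the site.
hsa-miR-31-5p: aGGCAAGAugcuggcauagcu
ERG 3′ UTR site: tctccaggtcctTCTTGCCtccc
In the longest annotated 3′ UTRs (GENCODE release 29), no seed match was found in TIE1, KDR or NOTCH4, in 386, 1682 and 594 bases. ERG had 1 match, of the kind named 7mer-m8, which pairs with the whole seed, at base 1551 of 3376. Of 954 listed genes with an annotated 3′ UTR 19.4% had a match. ERG, the member that was lower in miR-31 KO, also had the longest of the 4 UTRs searched. Whether miR-31 acts on this site was not tested.

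Listed genes near the members were counted within 1 Mb, beside the 5.87% of all tested genes that were listed. They were counted among all annotated protein coding genes there, whether or not the authors tested them, so the bases of these shares differ. The counts are small and were not tested. Around TIE1 none of 42 protein coding genes was listed and around ERG none of 12. Around KDR 1 of 13 was listed, the receptor tyrosine kinase gene PDGFRA, higher in miR-31 KO at 27.2 ± 10.97 against 4.48 ± 3.51. Around NOTCH4, in the gene-dense major histocompatibility region, 4 of 98 were listed: HLA-B, GPSM3 and HLA-DQB1 as higher and COL11A2, a collagen gene, as lower. Limma refits called PDGFRA in 2 of 13, HLA-B in 6 of 14, HLA-DQB1 in 12 of 13 and COL11A2 in 0 of 13. HLA-DQB1, a class II antigen-presenting gene, was at 0 in all controls and had 6.42, 6.82 and 9.69 in the KO replicates. HLA-B, which presents peptides as a class I molecule, had 1548 ± 93.7 in the controls and 3122 ± 599 in the KO libraries. Its lowest KO value was in replicate 3, as for NOTCH4, GPSM3 and TIE1, and this library had the lowest sum of the KO group. HLA-DQB1 had its highest KO value there.

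The listed genes whose pattern over the 6 libraries was most like each member were found by the root mean square difference of log2(value + 1), centred on each gene's mean, among 520 other genes with a mean of at least 50. For ERG these were ZNF185, KCNK5 and SLFN13, at differences of 0.10, 0.10 and 0.11. SLFN13, a Schlafen family gene, had 1205, 1145 and 1316 in control and 321, 371 and 293 in miR-31 KO. For TIE1 they were SV2A, MMP3 and PALM2, at 0.15, 0.18 and 0.22. MMP3, which encodes the matrix protease stromelysin, had 1460, 681 and 538 in control and 4324, 4324 and 3858 in the KO replicates, and SV2A, a synaptic vesicle protein gene, had 403, 189 and 174 and 1463, 1516 and 801. Both, and PALM2 with 112, 73.1 and 70.7 in control, shared with TIE1 a control replicate 1 above the other controls.

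For KDR the most alike were FLVCR2, ZNF112 and PPFIBP2, at 0.14, 0.15 and 0.16, and ZNF112 had its highest control value in replicate 2 and its highest KO value in replicate 3, as KDR did. For NOTCH4 they were ZNF22, PGBD5 and ASS1, at 0.35, 0.35 and 0.42, which is more than for the genes named for the other members. The measure is not scaled by the size of change, which was largest for NOTCH4. These larger differences therefore do not show a less shared pattern. ASS1, which encodes argininosuccinate synthase of the urea cycle, had 0.979 to 2.003 in control and 177, 199 and 105 in miR-31 KO. The members were not close to each other by this measure: TIE1 and KDR, the nearest pair, differed by 0.93, and KDR was number 248 in the order for TIE1. TIE1 was number 60 of 520 in the order for NOTCH4, at a difference of 1.52. All listed genes were selected for a difference between the groups, so likeness over these libraries mostly reflects that difference.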

How the data were processed

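RNA sequencing covered 3 control and 3 miR-31 KO libraries of K1 cells, grouped by title; the series text speaks of duplicates. Per the labels RNA was taken with Trizol. Per the submitters' processing notes the builds hg19 and hg38 and the tools RSEM, HISAT and Bowtie2 are named without their roles. The authors deposited normalized counts (a signal unit, not whole numbers) for 986 genes, with a scaling not given in the sources used here. The log2 values deposited by the authors are fold changes they computed of miR-31 KO over control. The p-value and adjusted p-value were deposited by the authors, with a test not given. The summed values of these genes were 545354 to 943360 per library, and total depth is unknown.

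Those fold changes and p-values serve as the main comparison. The members and gene lists were chosen with earlier results of these data known. Alternatives were limma 3.58.1 refits in R 4.3.3 (eBayes with trend) of the listed genes, adjusted over the 16806 genes that the authors' first adjusted p implies; they estimate the spread from selected genes. They used log2(value + 1), a pseudocount of 0.1, 3 other scalings, a mean of at least 50, the replicate block and each library left out. Ratios were computed within libraries (Python 3.11.15, scipy 1.17.1). Genes named are the 4 members, up to 6 listed genes per list, listed genes within 1 Mb and the 3 most alike genes per member. Positions and 3′ UTRs came from GENCODE release 29, promoters and the miRNA from RefSeq, which may not be the authors' annotation.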

Additional observations from a re-analysis of the deposited data

How the results depend on the processing

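All 4 genes also had an adjusted p under 0.01 in the authors' deposited table. With limma refits KDR was not called: its log2 difference was 1.04 (adjusted p = 0.0651), 1.04 with a pseudocount of 0.1, 0.74 after quantile normalization, 0.33 after median ratio scaling, 0.52 with equal sums, 1.04 with a mean of at least 50, and 0.79 for control replicates 2 and 3 against KO replicates 1 and 2. With the replicate block it was 1.04 (adjusted p = 0.0829), and the block changed no other member's call. Deviations from the group means correlated across genes at 0.20, -0.13 and 0.15 between libraries of the same number, and the pairing was therefore not used. With 1 library left out KDR ranged from 0.89 to 1.22, TIE1 from 2.19 to 2.81, ERG from -1.86 to -1.76 and NOTCH4 from 5.21 to 5.60, and 2 to 3 members were called. The number called of all listed genes then ranged from 156 to 420, against 447 with all libraries, where fewer libraries were fitted. The log2 differences of ERG to TIE1, KDR and NOTCH4 with 1 library left out ranged from -4.61 to -4.00, -3.08 to -2.69 and -7.42 to -7.01. Within same-numbered libraries the replicate block gave means of -4.22, -2.85 and -7.17, which equal the unpaired differences by construction. The single pairs ranged from -4.70 to -3.67 for TIE1, from -3.19 to -2.30 for KDR and from -7.43 to -6.82 for NOTCH4.

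With a log2 fold change of at least 2 in size, 3 of the 5 listed endothelial markers were left, 1 of 3 VEGF and angiopoietin genes, 1 of 3 Notch genes, 1 of 2 ETS factors, 1 of 2 blood cell markers and 2 of 5 thyroid epithelial markers, beside 452 of the 986 listed genes. For other named genes 228 of 439 values over the settings were still past the threshold, 211 were not, and 0 changed direction. The cause of the lost calls was not tested. A test without the authors' selection needs a table of all genes and was not run.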
